A study of Rattus norvegicus with 9 samples.

Results

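Transcripts of 10 Bcl2 family genes, which set the threshold for mitochondrial cell death, were followed in rat horizontal basal cells under PMA. These cells form the reserve stem cell pool of olfactory epithelium. The members were chosen by symbol: the pro-survival genes Bcl2, Bcl2l1 and Mcl1, the effector genes Bax and Bak1, and the BH3-only genes Bid, Bad, Bcl2l11, Pmaip1 and Bbc3. All 10 were present among 17315 genes counted in each library. Primary cells dissociated from olfactory epithelium of rats of the strain labelled SD were cultured to passage 7. Groups of 3 libraries each came from cells in vehicle (0.1% DMSO, labelled time 0), cells after 6 h in 50 nM PMA, and cells after 12 h in 50 nM PMA. PMA is phorbol 12-myristate 13-acetate, a phorbol ester that activates protein kinase C. The labels give no vehicle cultures at 6 h or 12 h, so PMA and time in culture cannot be told apart. Nor do they state if replicate libraries derive from different cultures or rats, so the p-values cover the spread among libraries alone.

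The family works by binding. Pro-survival proteins hold the pore-forming effectors Bax and Bak1 in check at the mitochondrial outer membrane, BH3-only proteins relay stress signals by occupying the pro-survival proteins or by activating the effectors, and the open pore lets cytochrome c out to start the caspases. Partners are selective: the Pmaip1 product (Noxa) binds Mcl1, the Bad product binds Bcl2 and Bcl2l1 (Bcl-xL), and the products of Bcl2l11 (Bim), Bbc3 (Puma) and cleaved Bid bind widely. Basal cells of stratified epithelia rely mainly on Bcl-xL and Mcl1. Much of the regulation acts on the proteins, which RNA counts do not measure, and a count per gene sums all splice forms, some of which act in opposite directions for Bcl2l1 and Mcl1.

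Libraries held 13601635 to 19001819 reads in genes. Levels are CPM, counts scaled to a common library total, here after TMM scaling, which corrects totals for differences in composition. They are means ± SD (n = 3), are not corrected for gene length and are compared between groups only, never between genes. All 7 basal cell markers had reads, and their sum was 14821 to 17016 CPM in vehicle, 2489 to 2996 at 6 h and 3913 to 4566 at 12 h. Krt5 went from 6827 to 402 and then 489 CPM, while Icam1 went from 143 to 176 and then 359 CPM. Of other cell types, 9 of 11 neuronal, 3 of 4 respiratory ciliated, 6 of 8 fibroblast and pericyte, 7 of 9 immune, 6 of 7 endothelial and glial, and 4 of 7 sustentacular and gland markers stayed under 1 CPM in every group. Gap43, Dcx, Ptprc, Pdgfrb, Lum, Sox10, Cyp2g1 and Cyp1a2 had no read in any library. The sustentacular and gland sum was 1207 to 1412 CPM in vehicle, 1954 to 2015 at 6 h and 2189 to 2530 at 12 h, most of it Krt8 (1304, 1871 and 2150 CPM), with Sox9 at 18.0, 72.5 and 137 CPM and Krt18 at 6.49, 36.7 and 37.8 CPM. The part of these shifts in the members' changes was not tested. In cultures of many cells, fewer cells with a transcript and less transcript per cell cannot be told apart.

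After 6 h of PMA, Mcl1, Bcl2l1, Bcl2l11, Pmaip1 and Bid were higher than in vehicle, and Bcl2, Bad and Bak1 were lower. The genes that rose came from both the pro-survival and the pro-death side. Bcl2, the pro-survival gene that was lower, had passed the filter on low counts through vehicle alone. Between 6 h and 12 h the members parted. Mcl1 and Bcl2l11 fell back part of the way, Pmaip1 rose further, and Bak1 and Bad regained expression. Bbc3, whose 6 h difference from vehicle did not pass, rose as well. With the quasi-likelihood test of edgeR, adjusted by Benjamini and Hochberg's method over 10128 tested genes, 5 members were higher and 3 lower at 6 h, beside 37.8% and 39.0% of all tested genes (76.8% in either direction). In 8 of 10 members the libraries of the 2 groups did not overlap, as in 79.0% of all tested genes. The count of members is thus near the background, and the description below concerns which members moved, when and how far. Members had a median log2 fold change of 0.63 at 6 h, against -0.03 over all tested genes.

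**Figure D1:**
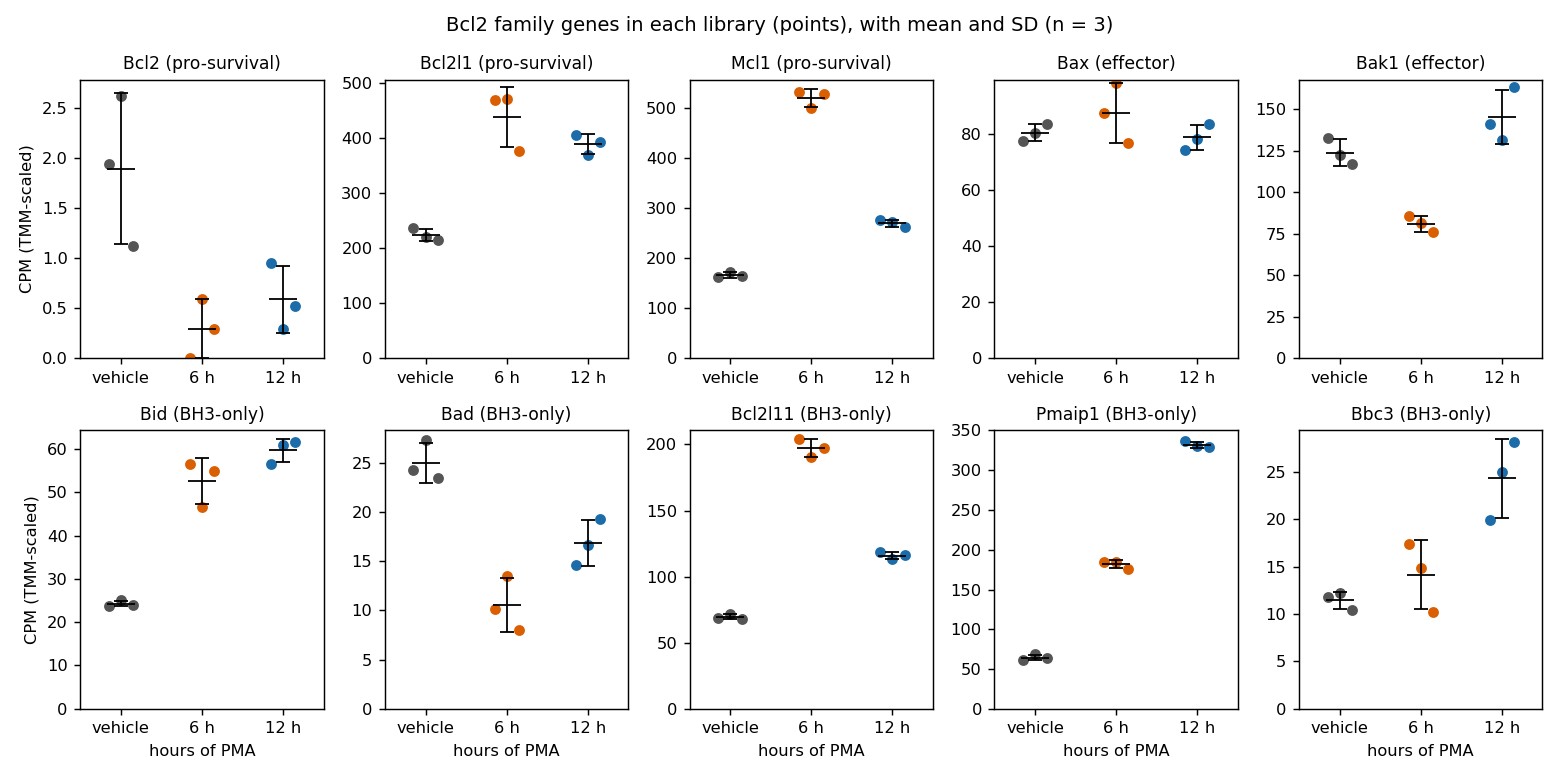
Level of each member in CPM (y axis, from 0, its own scale in each panel) in vehicle, 6 h and 12 h libraries; points are libraries, bars the mean and SD (n = 3). Mcl1 and Bcl2l11 peak at 6 h, Pmaip1 climbs to 332 CPM at 12 h, and Bak1 and Bad dip at 6 h.

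The stretches just upstream of Mcl1, Pmaip1 and Bcl2l11 are shown because these are the members with the largest rises at 6 h, and because Mcl1 and Bcl2l11 share a 6 h peak. Sequences are from RefSeq (GRCr8 assembly, not the build of the counts), the 120 bases before each annotated start, 5′ to 3′: chr2:185908048-185908167 for Mcl1, chr18:62255850-62255969 for Pmaip1 and chr3:135819922-135820041 for Bcl2l11, all on the plus strand. Capitals mark matches on either strand to the CRE half-site TGACG, bound by CREB and ATF factors, and to the NF-kB motif.
Mcl1: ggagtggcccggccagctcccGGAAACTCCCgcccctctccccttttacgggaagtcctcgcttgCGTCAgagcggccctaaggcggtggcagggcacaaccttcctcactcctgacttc
Pmaip1: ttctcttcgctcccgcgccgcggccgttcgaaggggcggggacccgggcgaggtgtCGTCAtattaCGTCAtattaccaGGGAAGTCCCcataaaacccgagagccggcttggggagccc
Bcl2l11: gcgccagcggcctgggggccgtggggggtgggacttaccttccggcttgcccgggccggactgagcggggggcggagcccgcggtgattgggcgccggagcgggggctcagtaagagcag
Mcl1 held the half-site 55 bases and the NF-kB match 99 bases before its start. Pmaip1 held half-sites at 64 and 54 bases and an NF-kB match at 41 bases. Bcl2l11 had neither in the 250 bases searched.

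Among the 8 members with an entry (11 windows; Bax and Bbc3 were not matched), those 2 were the only ones with either motif in the searched 250 bases, while over all 33469 windows 18.2% held the half-site and 3.54% the NF-kB motif. The GC box GGGCGG, bound by Sp1, was present upstream of 5 members (Mcl1, Bak1, Bid, Bcl2l11 and Pmaip1) and in 30.5% of all windows. In Mcl1 it overlapped the NF-kB match. None of the 11 windows held the AP-1 motif TGANTCA (6.34% of all), the full CRE TGACGTCA (1.59%, which contains the half-site), the E-box CACGTG (5.59%), the CArG box (1.5%) or the p53 decamer (6.64%). These are letter matches in short windows, given as description only. GC content was 72.0% for Bcl2l11, 64.8% for Pmaip1 and 62.0% for Mcl1, against 33.6% for Bcl2 and a median of 51.2% over all windows.

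Mcl1, a short-lived pro-survival protein that guards Bak1, stood at 162, 173 and 165 CPM in vehicle, 533, 500 and 528 CPM at 6 h, and 276, 272 and 262 CPM at 12 h. The 3 groups were fully separate, and replicates lay close together. The level rose 3.12-fold at 6 h (log2 fold change 1.64 ± 0.07 SE, adjusted p = 5.9e-13) and then fell by 0.95 ± 0.07 on the log2 scale to 12 h (adjusted p = 8.5e-09). At 12 h it was still above vehicle (0.69 ± 0.07, adjusted p = 5.5e-08), a call lost without normalization (0.11).

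Bcl2l1, which encodes Bcl-xL, stood at 236, 220 and 215 CPM in vehicle, 468, 470 and 376 CPM at 6 h, and 405, 369 and 393 CPM at 12 h. All PMA libraries lay above all vehicle libraries, and the 6 h and 12 h groups overlapped, with 6 h replicate 3 in the 12 h range. The rise was 0.97 ± 0.09 at 6 h (adjusted p = 1.6e-08) and 0.80 ± 0.09 at 12 h (adjusted p = 2.1e-07). The 12 h to 6 h difference of -0.17 ± 0.09 did not pass (adjusted p = 0.11). It passed without 6 h replicate 3 (-0.26) and without normalization (-0.21).

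Bcl2, the founding member, had few reads: 45, 61 and 21 reads in vehicle, 0, 8 and 5 reads at 6 h, and 14, 4 and 6 reads at 12 h. These are 1.94, 2.62 and 1.12 CPM in vehicle, at most 0.588 CPM at 6 h and 0.291 to 0.953 CPM at 12 h. Every PMA library was below every vehicle library. Bcl2 passed the filter on low counts through its vehicle libraries alone, so a gene kept in this way had to be lower elsewhere. Its fitted change was -2.70 ± 0.66 at 6 h (adjusted p = 0.0014; -3.56 without 6 h replicate 2 and -3.29 by limma-voom) and -1.67 ± 0.60 at 12 h (adjusted p = 0.019). The 12 h call was lost without vehicle replicate 2 (-1.36) or 12 h replicate 2 (-1.33) or 3 (-1.59).

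Of the effectors, Bax did not pass in any comparison. It stood at 77.6, 80.3 and 83.7 CPM in vehicle, 87.6, 98.2 and 76.9 CPM at 6 h, and 74.4, 78.4 and 83.6 CPM at 12 h. The groups overlapped throughout. Its log2 differences from vehicle were 0.12 ± 0.09 at 6 h (adjusted p = 0.24) and -0.032 ± 0.09 at 12 h (adjusted p = 0.76). With other scalings it was lower: upper-quartile scaling gave -0.14 at 6 h and -0.30 at 12 h (adjusted p = 0.17 and 0.0057), and no normalization gave -0.42 and -0.61 (adjusted p = 2.6e-04 and 4.3e-06). Without 6 h replicate 3 the 12 h to 6 h difference, -0.15 ± 0.09, passed as -0.23.

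Bak1, the other effector, dipped and came back. Its levels were 132, 122 and 117 CPM in vehicle, 85.4, 81.6 and 75.9 CPM at 6 h, and 141, 131 and 163 CPM at 12 h. The 6 h libraries lay below all others, while vehicle and 12 h libraries overlapped. Bak1 was lower at 6 h (-0.61 ± 0.09, adjusted p = 6.5e-06) and rose from 6 h to 12 h (0.84 ± 0.09, adjusted p = 6.9e-07). The 12 h difference from vehicle, 0.23 ± 0.09 (adjusted p = 0.024), was smaller than the shift between scalings. Upper-quartile scaling gave -0.041 (adjusted p = 0.69), and leaving out normalization gave -0.35 (adjusted p = 0.001), where Bak1 was called lower. With TMM the call of higher was lost without vehicle replicate 2 (0.22) or 3 (0.19), without 12 h replicate 3 (0.14), and with only these 2 groups in the fit (0.21).

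**Figure D2:**
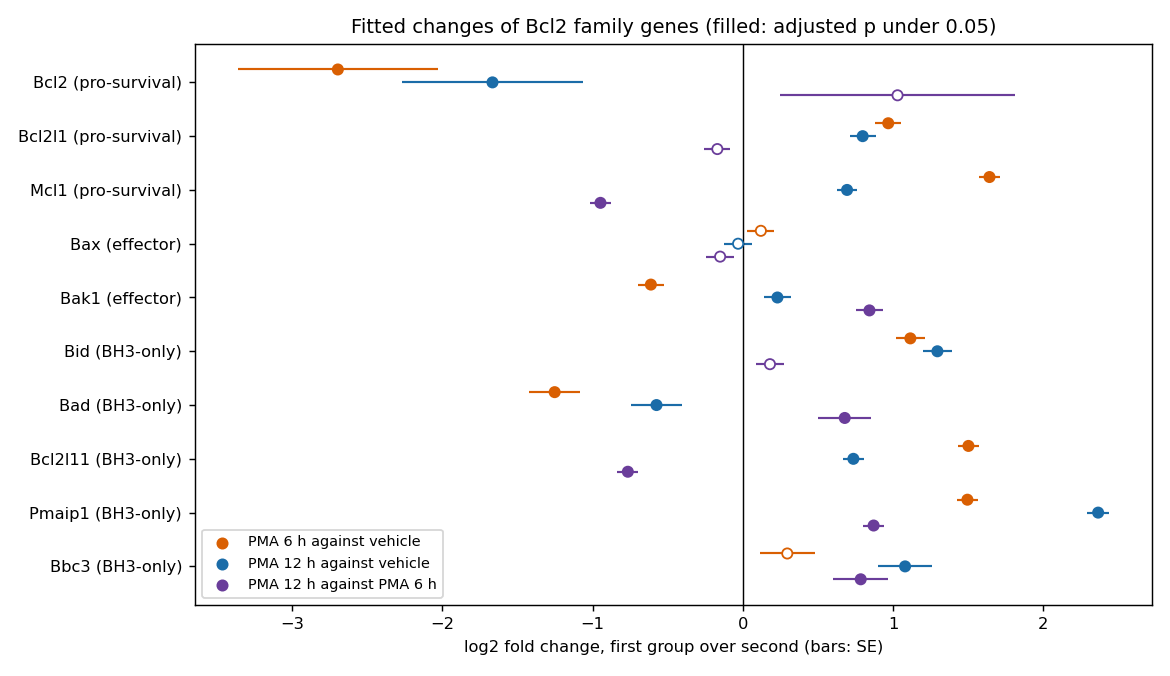
Fitted log2 fold change of each member (x axis) in the 3 comparisons, with SE bars; filled points passed at adjusted p under 0.05. Mcl1 and Bcl2l11 show 6 h rises of 1.64 and 1.5 followed by negative 12 h to 6 h differences, and Bax lies near 0 in all 3.

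Pmaip1, whose product Noxa neutralises Mcl1, rose in both steps. It stood at 61.1, 68.4 and 64.0 CPM in vehicle, 185, 185 and 176 CPM at 6 h, and 336, 331 and 329 CPM at 12 h. No library of one group came near another group. The rise was 1.49 ± 0.07 at 6 h (adjusted p = 2.9e-12), 0.87 ± 0.07 from 6 h to 12 h (adjusted p = 2.6e-08) and 2.36 ± 0.07 over 12 h (5.15-fold, adjusted p = 1.1e-14). Of the members it had the largest F statistic for any difference among the 3 groups, at rank 118 of 10128 genes.

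Bcl2l11, which encodes Bim, followed the course of Mcl1. Its libraries were at 69.0, 71.7 and 68.2 CPM in vehicle, 204, 190 and 197 CPM at 6 h, and 119, 113 and 116 CPM at 12 h. The 3 groups were fully separate. Bcl2l11 rose by 1.5 ± 0.07 at 6 h (adjusted p = 2.5e-12), then changed by -0.77 ± 0.07 to 12 h (adjusted p = 1.2e-07). It stayed above vehicle at 12 h (0.74 ± 0.07, adjusted p = 3.8e-08), a call lost without normalization (0.15).

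Bbc3, which encodes Puma, passed against vehicle at 12 h only. Levels were 11.7, 12.2 and 10.5 CPM in vehicle, 17.4, 14.8 and 10.2 CPM at 6 h, and 19.9, 24.9 and 28.1 CPM at 12 h. The 6 h group overlapped vehicle because of replicate 3, and the 12 h group lay above both. The 6 h difference of 0.30 ± 0.18 did not pass (adjusted p = 0.15); it passed without 6 h replicate 3 (0.48, adjusted p = 0.016) and was -0.24 without normalization. Bbc3 rose from 6 h to 12 h (0.78 ± 0.18, adjusted p = 0.0016) and was above vehicle at 12 h (1.08 ± 0.18, adjusted p = 3.5e-05).

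Bid, which links death receptors to mitochondria once caspase 8 has cut its product, rose and stayed up. It stood at 23.8, 25.1 and 24.1 CPM in vehicle, 56.5, 46.6 and 54.9 CPM at 6 h, and 56.6, 60.9 and 61.6 CPM at 12 h. All PMA libraries lay above all vehicle libraries. The rise was 1.11 ± 0.10 at 6 h (adjusted p = 1.3e-08) and 1.29 ± 0.10 at 12 h (adjusted p = 2.0e-09), and the difference between these times, 0.18 ± 0.10, did not pass (adjusted p = 0.13).

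Bad, a BH3-only protein that survival kinases switch off by phosphorylation, was the BH3-only gene that fell. Its levels were 24.3, 27.3 and 23.4 CPM in vehicle, 10.2, 13.5 and 7.98 CPM at 6 h, and 14.6, 16.6 and 19.2 CPM at 12 h. The 3 groups did not overlap. Bad fell by 1.25 ± 0.17 on the log2 scale at 6 h (adjusted p = 3.4e-06), rose by 0.68 ± 0.18 to 12 h (adjusted p = 0.0039) and stayed below vehicle (-0.58 ± 0.17, adjusted p = 0.0048).

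At 12 h against vehicle, 7 members were higher and 2 lower, beside 37.7% and 38.2% of all tested genes (75.8% in either direction). With upper-quartile scaling the split was 6 and 3, and without normalization it was 4 and 4. Libraries did not overlap in 8 members, as in 78.7% of tested genes. From 6 h to 12 h, 4 members rose (Pmaip1, Bak1, Bbc3 and Bad) and 2 fell (Mcl1 and Bcl2l11), beside 25.3% and 25.8% of all tested genes (51.1% in either direction). Without 6 h replicate 3, Bcl2l1 and Bax also passed, which made 4 lower. Libraries did not overlap in 7 members, as in 58.0% of tested genes. All 4 that rose encode death-promoting proteins, as do 7 of the 10 members. The comparisons with vehicle share the vehicle libraries. Over the 3 groups together, 9 of 10 members differed (Bax did not), beside 87.3% of tested genes. The counts against vehicle and over the 3 groups include Bcl2. As the filter kept Bcl2 through vehicle alone, its lower values under PMA were built in.

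Small differences from vehicle depended on how libraries were scaled. Upper-quartile scaling moved the median of all genes by -0.26 at 6 h and -0.27 at 12 h, and leaving out normalization moved it by -0.54 and -0.58. Under both, Mcl1, Bcl2l1, Bcl2l11, Pmaip1 and Bid kept positive differences from vehicle at both times, and Bcl2 and Bad kept negative ones. Bax at 6 h and Bak1 at 12 h changed sign under both, and Bbc3 at 6 h without normalization. The 12 h to 6 h comparison moved by only -0.01 and -0.04.

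**Figure D3:**
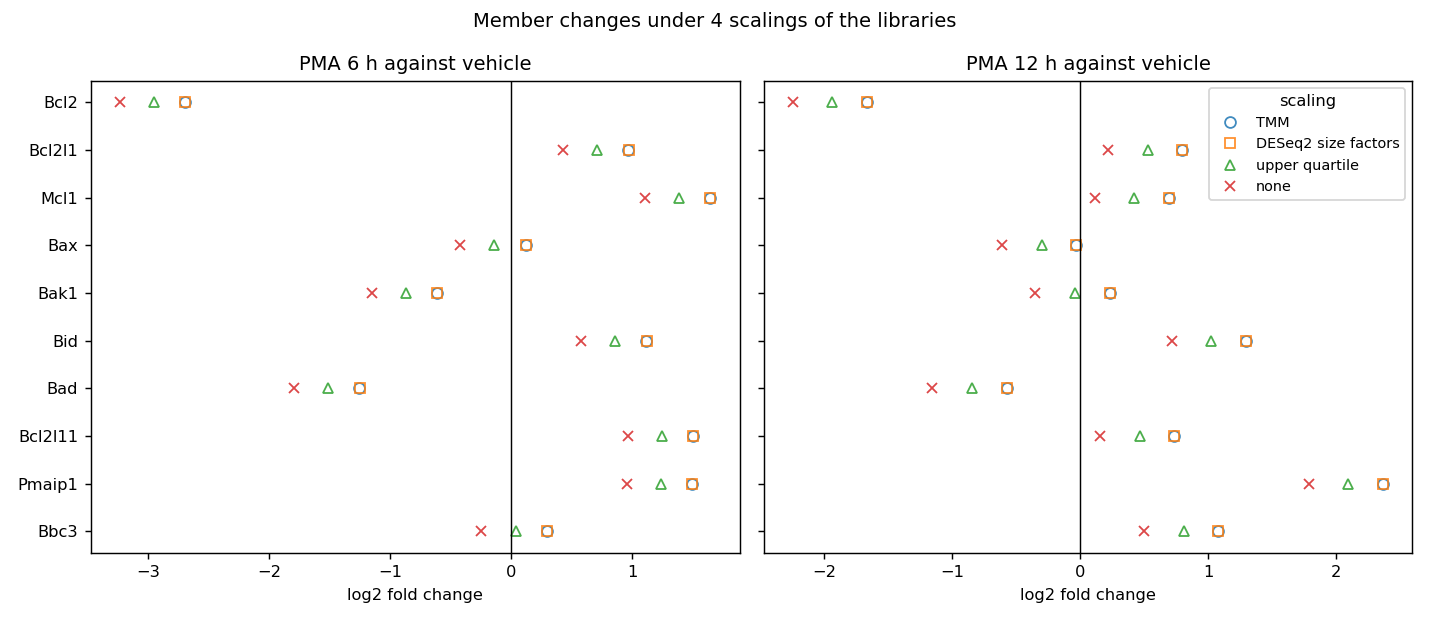
Log2 fold change of each member against vehicle at 6 h (left) and 12 h (right) under 4 scalings. TMM and DESeq2 size factors coincide, and no normalization lies lowest, putting Bax at -0.42 and -0.61 and Bak1 at -0.35 at 12 h.

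A ratio of members within a library does not depend on that scaling, so 10 pairs of a pro-death gene over a pro-survival gene were compared as ratios of read counts. Their absolute size depends on gene length, and only their change between groups is read. No p-values were computed for them. At 6 h, 7 ratios were lower and 3 higher than in vehicle with no overlap between groups, where 79.0% of single genes do not overlap either, and the share over other pairs of genes was not computed. The 3 that were higher all divide by Bcl2, and the 7 that were lower divide by Mcl1 or Bcl2l1, which both rose. Ratios that share a denominator are not separate results. At 12 h, 4 were lower and 4 higher without overlap, 3 of the higher ones over Bcl2, and 2 overlapped. As Bcl2 was kept through its vehicle libraries alone, the direction of these 3 against vehicle was set by the filter and is no result. From 6 h to 12 h 6 were higher, 0 lower and 4 overlapped, where 58.0% of single genes do not overlap. All 6 divide by Mcl1, which fell between these times, or by Bcl2l1.

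The Bak1 to Mcl1 ratio, an effector over its guard, was 0.816, 0.705 and 0.707 in vehicle, 0.160, 0.163 and 0.144 at 6 h, and 0.512, 0.483 and 0.624 at 12 h. It was 4.76-fold lower at 6 h and still 1.38-fold lower at 12 h. The Pmaip1 to Mcl1 ratio was 0.377, 0.395 and 0.388 in vehicle, 0.347, 0.370 and 0.333 at 6 h, and 1.22, 1.22 and 1.26 at 12 h. At 6 h the ratio was slightly lower than in vehicle, by -0.15 on the log2 scale without overlap, and by 12 h it was 3.19-fold above vehicle. The Bcl2l11 to Mcl1 ratio moved little. It was 0.413 to 0.425 in vehicle, 0.373 to 0.382 at 6 h and 0.416 to 0.444 at 12 h, a 6 h change of -0.14 on the log2 scale without overlap, while Mcl1 rose 3.12-fold and Bcl2l11 2.83-fold at 6 h.

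Ratios over Bcl2l1 were lower throughout. Bax to Bcl2l1 went from 0.329 to 0.389 in vehicle to 0.187 to 0.209 at 6 h and 0.184 to 0.213 at 12 h. Bak1 to Bcl2l1 was 2.97-fold lower at 6 h and 1.48-fold lower at 12 h, and Bad to Bcl2l1 4.70-fold and 2.59-fold lower. Bbc3 to Mcl1 was 2.59-fold lower at 6 h and overlapped vehicle at 12 h. The 3 ratios over Bcl2 rest on few Bcl2 reads, and 6 h replicate 1 had none, so that 0.5 added to each count sets its value. With that library, Bax to Bcl2, Bcl2l11 to Bcl2 and Bid to Bcl2 were higher at 6 h by 3.37, 4.75 and 4.36 on the log2 scale. Without it the differences were 2.13, 3.50 and 3.08, and without 6 h replicate 2 they were 4.14, 5.63 and 5.30.

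**Figure D4:**
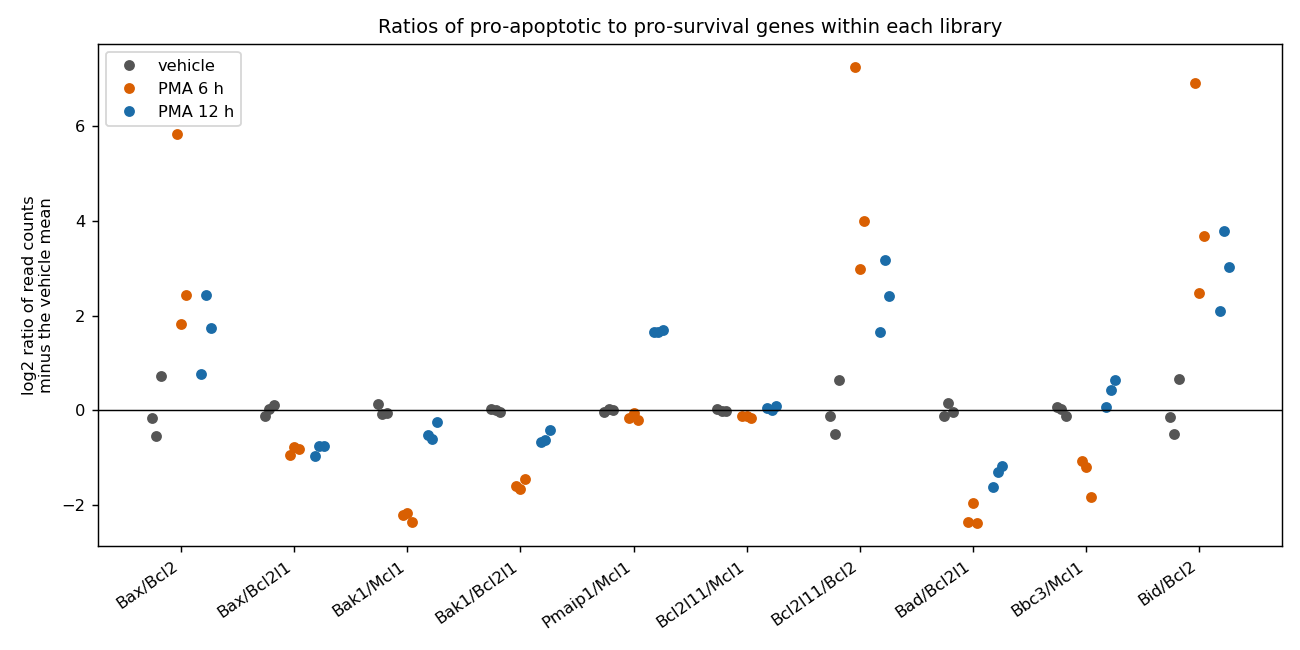
Log2 ratio of read counts of 2 members in each library minus the vehicle mean (y axis) for 10 pairs (x axis); each point is 1 library. Pmaip1/Mcl1 lies near the vehicle mean at 6 h (-0.15) and 1.67 above it at 12 h, Bak1/Mcl1 and Bad/Bcl2l1 are lowest at 6 h, and ratios over Bcl2 scatter widely.

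Among the other 11 family genes, 6 could be tested and Bcl2l10, Bik, Hrk, Bcl2l14 and Bcl2l15 were too low. At 6 h, 3 rose and 2 fell, beside 37.8% and 39.0% of all tested genes. From 6 h to 12 h these shares were 25.3% and 25.8%. They are the background for this list and every list below, and no list was tested as a set. Bcl2l2, a pro-survival gene (Bcl-w), rose from 60.3 ± 6.01 to 136 ± 0.552 CPM (1.18 ± 0.08, adjusted p = 7.4e-10). Bcl2a1, a pro-survival gene best known from white blood cells, had 2, 1 and 0 reads in vehicle, 27, 25 and 6 at 6 h, and 44, 71 and 43 at 12 h. It was higher than vehicle at both times (adjusted p = 6.1e-05 and 6.7e-07). Its ratio to vehicle was 27.8 at 6 h (95% counting interval 9.06 to 139) and 85.9 at 12 h (28.9 to 421), which cover counting error only. Bcl2a1 passed the filter on low counts through PMA libraries alone, so its direction against vehicle was built in. Its fitted changes of 4.64 and 6.22 became 5.39 and 6.97 without vehicle replicate 1. The 12 h to 6 h rise of 1.58 ± 0.49 (adjusted p = 0.012) was lost without 12 h replicate 2 (1.34). Summed immune markers went from 26.7 to 29.3 CPM in vehicle to 70.9 to 73.0 at 6 h and 83.8 to 95.9 at 12 h, of which Cd68 made up 19.6, 69.4 and 85.6 CPM in turn. Ptprc had no read in any library, and Cd14 went from 7.80 to 1.48 and then 3.26 CPM. Their part in the Bcl2a1 values was not tested. Bcl2l12 fell (-0.75 ± 0.23, adjusted p = 0.0068). At 12 h against 6 h, 2 rose (1 without 12 h replicate 2) and 1 fell, and Bok, an effector-like gene, rose (0.49 ± 0.13, adjusted p = 0.0048) from 18.2 to 25.5 CPM. Bok had been at 29.4 CPM in vehicle and lower at 6 h (-0.69 ± 0.13, adjusted p = 9.0e-05), and its 12 h libraries overlapped vehicle.

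Downstream of the pore, 4 of 12 tested apoptosome and caspase genes rose at 6 h and 5 fell (median -0.42). This stands beside 37.8% and 39.0% of all tested genes. With upper-quartile scaling 8 fell, and with no normalization 2 rose and 8 fell. Apaf1, the scaffold of the apoptosome, rose from 44.4 to 138 CPM (1.64 ± 0.11, adjusted p = 3.2e-10). Htra2, a mitochondrial protease that blocks the inhibitors of apoptosis, fell from 34.4 to 11.03 CPM (-1.64 ± 0.13, adjusted p = 4.1e-09). At 12 h against 6 h, 2 rose and 5 fell (3 fell without 12 h replicate 2, and 1 rose without 6 h replicate 3 or 12 h replicate 1), among them Cycs, which encodes cytochrome c (-0.72 ± 0.08, adjusted p = 9.2e-07), and the nuclease Dffb (-1.17 ± 0.18, adjusted p = 4.2e-05). Dffb had risen from 7.28 CPM in vehicle to 13.8 at 6 h, a call lost without normalization (0.38), and was at 6.13 CPM at 12 h. Cycs went from 136 CPM in vehicle to 102 and then 61.9 CPM.

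Of 5 inhibitors of apoptosis, 3 rose and 1 fell at 6 h, beside 37.8% and 39.0% of all tested genes (2 fell without normalization). Birc3 rose from 9.02 to 61.7 CPM (2.78 ± 0.14, adjusted p = 1.2e-11) and Xiap, the direct caspase inhibitor, from 26.7 to 57.2 CPM (1.10 ± 0.15, adjusted p = 5.9e-06). Birc5 (survivin), which also serves mitosis, fell from 24.1 ± 15.04 to 0.583 ± 0.401 CPM (-5.28 ± 0.72, adjusted p = 2.1e-04; -6.06 without 6 h replicate 3). No PMA group had all 3 libraries over the cutoff of the filter, so Birc5 was kept through vehicle and its direction against vehicle was built in. Birc5 is the gene counted as lower at 6 h. From 6 h to 12 h only Birc6 passed (0.23 ± 0.09, adjusted p = 0.046), a call lost under 11 alternatives: upper-quartile scaling, no normalization, DESeq2, limma-voom, the replicate block, a fit of these 2 groups only, and leaving out vehicle replicate 2, 6 h replicate 2 or 3, or 12 h replicate 2 or 3 (0.15 to 0.25). Birc3 passed as lower under several of these settings (-0.46 to -0.31).

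In the death receptor pathway, which reaches mitochondria through Bid, 6 of 10 tested genes rose and 3 fell at 6 h (median 0.50). The shares over all tested genes were 37.8% and 39.0%, and without normalization 3 of the 10 rose. Cflar, the decoy that blocks caspase 8, rose from 20.8 to 101 CPM (2.28 ± 0.10, adjusted p = 1.1e-12) and the kinase Ripk1 from 42.8 to 155 CPM (1.86 ± 0.09, adjusted p = 4.6e-12), while the receptor gene Fas fell from 19.7 to 5.99 CPM (-1.71 ± 0.17, adjusted p = 7.1e-08). Later, between 6 h and 12 h, 4 rose and 4 fell. Ripk1 came down (-1.58 ± 0.09, adjusted p = 7.7e-10), and Tnf rose from 0.679 to 2.07 CPM (1.61 ± 0.53, adjusted p = 0.018), a call lost without 6 h replicate 2 (1.46) or 12 h replicate 1 (1.45) or 2 (1.30). Tnf was kept by the filter through PMA libraries alone, so its direction against vehicle was built in. It is among the 6 counted as higher at 6 h (1.46 ± 0.65, adjusted p = 0.049). That call was lost with upper-quartile scaling, no normalization, no filter or limma-voom, and on leaving out any 6 h library, among other settings.

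Pmaip1, Bbc3 and Bax are textbook targets of p53, so 13 tested genes of that pathway were read beside them. At 6 h, 6 rose and 4 fell (median 0.13), beside 37.8% and 39.0% of all tested genes. Only 3 rose with upper-quartile scaling or on leaving out 6 h replicate 1, and no normalization gave 3 and 7. Cdkn1a, the CDK inhibitor p21, rose from 476 to 1462 CPM (1.62 ± 0.10, adjusted p = 8.8e-11) and Sesn2 from 97.6 to 240 CPM (1.30 ± 0.10, adjusted p = 1.2e-09). Tp73 was at 0.842 CPM in vehicle and 0.154 at 6 h (-2.23 ± 0.88, adjusted p = 0.029; -3.29 by limma-voom), a call lost with DESeq2 (-2.38) and without vehicle replicate 2 or 3 or 6 h replicate 1 or 2 (-2.26 to -1.70), and at -6.82 without 6 h replicate 3. Tp73 passed the filter through vehicle alone, so its lower value under PMA was built in. Between the PMA times 3 rose and 2 fell (1 fell without 12 h replicate 3). Aen, an apoptosis-enhancing nuclease (0.96 ± 0.10, adjusted p = 1.2e-06), and Perp, a desmosomal protein (0.76 ± 0.07, adjusted p = 3.0e-07), were among the 3 that rose.

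Among 13 tested regulators of family members, 8 rose and 3 fell at 6 h, beside 37.8% and 39.0% of all tested genes (median 0.97). Without normalization 5 fell. Foxo3, a transcription factor that induces Bcl2l11 and Bbc3, rose from 41.3 to 471 CPM (3.51 ± 0.09, adjusted p = 2.0e-15). Pim1, a kinase that inactivates the Bad protein, rose from 5.03 to 160 CPM (5.01 ± 0.18, adjusted p = 4.7e-11). E2f1, a cell cycle transcription factor, fell from 18.4 to 2.09 CPM (-3.13 ± 0.23, adjusted p = 1.2e-09). The change from 6 h to 12 h split into 2 that rose and 6 that fell, with 1 rising without normalization, 6 h replicate 1 or 2 or 12 h replicate 3. Trib3 (-1.34 ± 0.24, adjusted p = 6.6e-04) and Pim3 (-0.89 ± 0.11, adjusted p = 6.6e-06) were among those that fell. Pim3 had risen from 18.5 CPM in vehicle to 127 at 6 h, and at 68.6 CPM it was still above vehicle at 12 h. Trib3 went from 38.7 CPM in vehicle to 26.8 and then 10.7 CPM.

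Of 9 tested partners at the mitochondrial outer membrane, 3 rose and 5 fell at 6 h, beside 37.8% and 39.0% of all tested genes (median -0.24). Bnip3l, a mitophagy receptor related to the BH3-only proteins, rose from 180 to 433 CPM (1.26 ± 0.09, adjusted p = 7.7e-10) and again to 866 CPM at 12 h (1.00 ± 0.09, adjusted p = 1.1e-07). Bnip2 rose (1.00 ± 0.08, adjusted p = 3.3e-09), and Bnip1 fell (-1.04 ± 0.18, adjusted p = 5.5e-05) and came back in part (0.64 ± 0.19, adjusted p = 0.0082). Between the PMA times 5 rose and 1 fell (0 fell without 6 h replicate 3 or 12 h replicate 1 or 3).

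**Figure D5:**
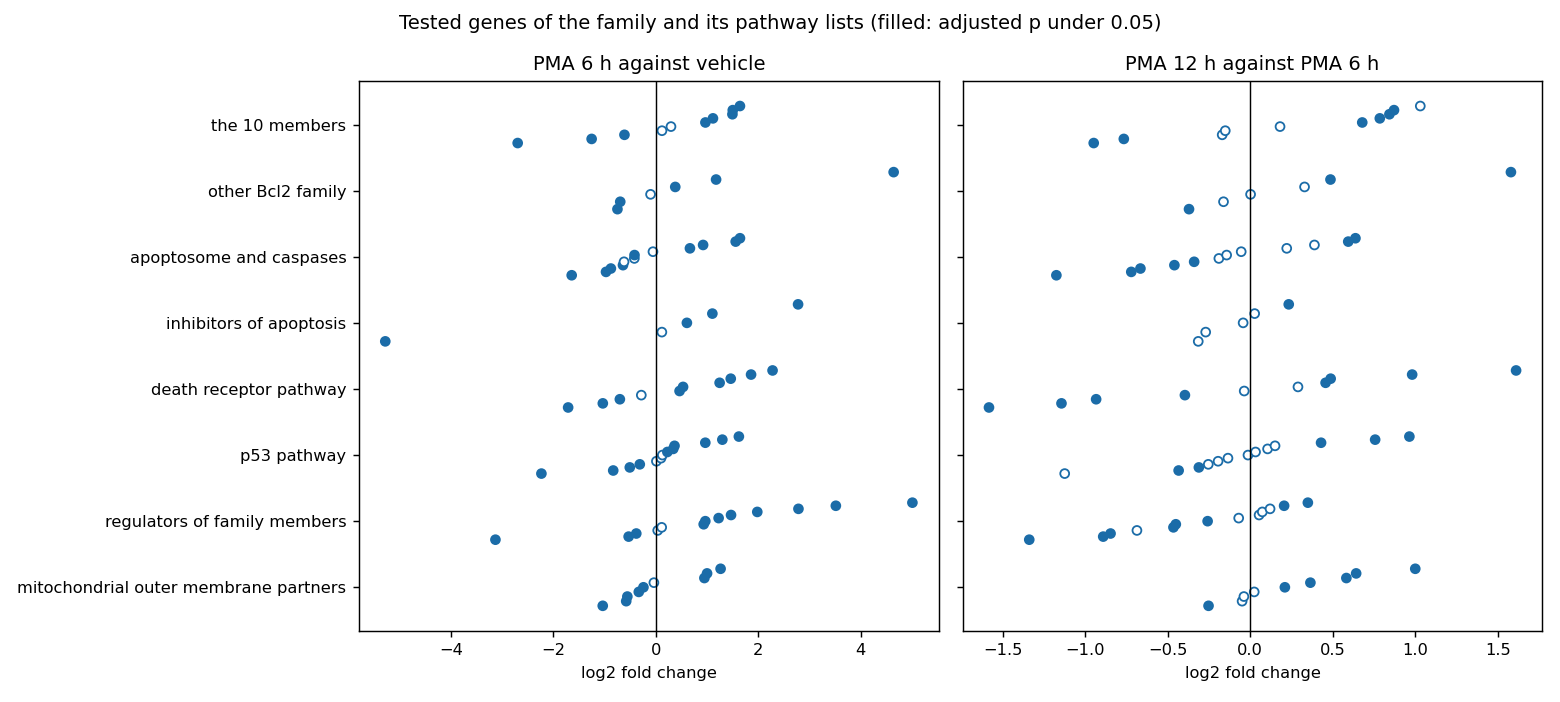
Log2 fold change (x axis) of each tested gene of the family and of 7 pathway lists (rows) at 6 h against vehicle (left) and 12 h against 6 h (right); filled points passed at adjusted p under 0.05. The 6 h values run from Birc5 at -5.28 to Pim1 at 5.01, and the members lie inside that range.

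For the member with the largest F statistic in each role, the genes nearest to it over the log2 fold changes at 6 h and 12 h (3 groups of 3 libraries) were named. Nearest to Mcl1 were Itgb1bp2, Slc41a1 and Zbtb7a, at distances of 0.051 to 0.067 log2 units. These lie under the SE of the Mcl1 changes themselves (0.07), so their order is not settled. Itgb1bp2 had few reads, at 0.694, 2.14 and then 1.08 CPM, and its vehicle and 12 h libraries overlapped. Zbtb7a went from 80.0 to 247 and then 124 CPM. Nearest to Bak1 were Nek9, Tmem63c and Eea1 (0.012 to 0.029), and Nek9 went from 110 to 71.4 and then 130 CPM. Nearest to Pmaip1 were Fam134b, Maml3 and Nedd4l (0.081 to 0.13), and Nedd4l went from 37.3 to 96.3 and then 194 CPM.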

How the data were processed

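RNA-seq libraries (9) were used. The authors deposited 1 count table per library, with a row for each gene symbol. Per the submitters' processing notes the authors used STAR 2.7.5b and the rn6 build. As to the gene annotation, it was not given in the sources used here. The column for both strands together was used, so overlapping antisense genes cannot be told apart; 4 summary lines were left out (28.7% to 32.2% of all reads lay in them). A deposited table of normalized values was not used. Libraries were grouped by title, and the 3 libraries of each group were checked not to be copies (their chi-square values were 3.94 to 28.9 per degree of freedom).

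The test was that of edgeR 4.0.16 under R 4.3.3 (filterByExpr at a minimum count of 10, TMM, robust quasi-likelihood F test, group as the only term, all 9 libraries in 1 fit). Fold changes carry SE, and p-values were adjusted by Benjamini-Hochberg over 10128 genes at a threshold of 0.05. The script was tested on simulated data in which few genes changed. As most genes changed in the real libraries, that test could not check the scaling. Alternatives were DESeq2 1.42.0, limma 3.58.1 (voom), other scalings, no filter, the replicate block, 2-group fits and leaving out each library. The members and gene lists were chosen with earlier results of these data known, and the 8 motifs after the values were seen. Of each list the up to 3 genes with the largest called change at 6 h and the up to 2 from 6 h to 12 h are named. A gene that this rule names is not reported here. Of 81 list entries, Eda2r, Huwe1 and Fbxw7 were not found by symbol.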

Additional observations from a re-analysis of the deposited data

Results flagged for a closer look

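In 6 members the effect against vehicle at 12 h differed from that at 6 h by the test of 12 h against 6 h itself (edgeR's quasi-likelihood test; adjusted p from 8.5e-09 for Mcl1 to 0.0039 for Bad). The effect was smaller at 12 h by -0.95 on the log2 scale for Mcl1 and by -0.77 for Bcl2l11. It was more positive at 12 h by 0.87 for Pmaip1, 0.84 for Bak1, 0.78 for Bbc3 and 0.68 for Bad. For Bad the fall from vehicle was thus smaller at 12 h (-0.58) than at 6 h (-1.25). Bak1 went from -0.61 at 6 h to 0.23 at 12 h, where its sign depended on the scaling. In each of these 6 genes no library of one time overlapped the other time, where 58.0% of all tested genes do not overlap either. As 51.1% of all tested genes passed this test, the count of 6 is near the background.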

How the results depend on the processing

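Under the alternatives tried, 488 of 509 recomputed member log2 fold changes kept direction and side of the threshold. With direction kept, 9 lost and 6 gained a call, and the remaining 6 changed sign. Among those 6, Bak1 at 12 h with upper-quartile scaling also lost its call, and Bax at 6 h without normalization gained one. Sign changes at 6 h were those of Bax with upper-quartile scaling (-0.14) and without normalization (-0.42) and of Bbc3 without normalization (-0.24). At 12 h they were those of Bak1 with upper-quartile scaling (-0.041) and without normalization (-0.35) and of Bax on leaving out 1 library (-0.074 to 0.0095). The cause of these was not tested. Without normalization 4 members were higher and 4 lower at 12 h, and all genes split into 2277 higher and 5855 lower at 6 h (3831 and 3945 with TMM) and 2120 and 6021 at 12 h (3818 and 3864). With upper-quartile scaling these were 3023 and 4837, and 2963 and 4827. Leaving out 1 library gave 1 to 2 lower members at 12 h, 2 to 4 lower from 6 h to 12 h, and a Bax to Bcl2l1 ratio change from 6 h to 12 h of -0.030 to 0.088. Of 714 list counts 54 moved by over 1.5 times. No pairing by replicate number was seen: deviations of same-numbered libraries correlated at -0.11 to 0.03, and 0 of 9 libraries correlated best with their own number. With 3 libraries per group a weak pairing could be missed, and the labels do not state one. With the replicate block, 5 members were higher and 3 lower at 6 h, 7 and 2 at 12 h, and 4 and 2 between them. It changed no member's call. Depth limits Bcl2, Bcl2a1, Tnf, Tp73 and Itgb1bp2.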
